A study of Mus musculus with 2 samples.

Results

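Neuropeptides are short signalling molecules that are cut out of larger precursor proteins, and granins are acidic proteins stored with them in dense-core vesicles. The genes described here are 47 genes for such precursors, listed by symbol and read from the deposited gene tables by Ensembl identifier. Of these, 46 were read among 43346 Ensembl genes. Kiss1 was not matched to a row, so no level is given for it. The 46 genes fall into 8 granins and granin-like proteins, 14 peptides of local and projecting neurons, 10 hypothalamic peptides, 7 urocortins, neuromedins and other rare peptides, and 7 vasoactive peptides.

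Newborn mice of the inbred strain B6NCrl, aged 0 days, gave the midbrains from which total RNA was sequenced. All samples belong to 1 group, pup 1 and pup 3, with 1 midbrain and 1 library each, and the labels name no treatment or altered gene. They give both pups 1 shared donor identifier and no sex. With 1 group there was no contrast between conditions, and an exact sign-flip test (two-sided) with 2 animals reaches p = 0.5 at the lowest, so levels are given with their spread and differences between the pups are given without a p.

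The libraries held 36934868 expected counts in pup 1 and 40769103 in pup 3. Counts of the Y-linked gene Ddx3y were 2618 in pup 1 and 0 in pup 3, and those of Xist, transcribed from the inactive X, were 2.26 and 10433.7, so any difference between these pups cannot be told apart from a difference between the sexes. Of 13 midbrain marker genes, 11 reached 1 TPM in each pup, against 62.1% of protein-coding genes. The highest level was that of Tcf7l2 at 685 ± 57.5 TPM (SD, n = 2). Of 9 hindbrain markers, 5 were at 0 in both pups, and Gbx2 had 13.0 TPM in pup 1 and 19.6 in pup 3. Of 9 pituitary markers, Prl, Fshb and Pou1f1 were at 0 in both, and the list summed to 3.10 and 2.35 TPM. These are bulk levels, and the region from which the RNA of each marker came was not tested.

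A precursor enters the secretory pathway and is packed into dense-core vesicles, where convertases cut it, a carboxypeptidase trims the ends and an amidating enzyme finishes many of the peptides. The peptides are released on strong activity and act mostly on G protein-coupled receptors. In the midbrain, somatostatin, neuropeptide Y and cholecystokinin mark subsets of local or projecting neurons, whereas vasopressin, oxytocin, orexin and melanin-concentrating hormone are made by cell bodies of the neighbouring hypothalamus. Many precursor genes are known targets of cyclic AMP signalling through the cyclic AMP response element, the palindrome TGACGTCA bound by CREB.

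The promoters of the precursors were searched for this element because they show how widely the motif is spread over genes read at very different levels. RefSeq promoter windows (GRCm38.p6, 250 bases before to 50 after a gene's start) were found for 39 of the 47 listed genes. This search by symbol included Kiss1. The 8-base palindrome stood in the windows of 5 of the 39 genes (12.8%), against 2.03% of 27025 genes with such a window, or 1.79% of 32851 windows. The shorter element TGACG, searched on both strands and contained in the palindrome, stood in the windows of 53.8% of these precursor genes and of 23.0% of all genes. The 30-base stretches around the 5 palindromes follow, 5′ to 3′ on the gene's strand, with the element in capitals.
Sst: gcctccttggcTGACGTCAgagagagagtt
Scg2: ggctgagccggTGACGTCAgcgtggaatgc
Chgb: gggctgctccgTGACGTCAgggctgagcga
Cartpt: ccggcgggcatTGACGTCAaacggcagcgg
Ucn: atgttcttcgcTGACGTCAgtcggagctgt
The Sst stretch lies at chr16:23890874-23890903 on the minus strand, with the element 48 to 41 bases before the RefSeq start. That of Scg2 lies at chr1:79440076-79440105 (minus, 68 to 61 bases before), that of Chgb at chr2:132781559-132781588 (plus, 72 to 65) and that of Cartpt at chr13:99900777-99900806 (minus, 112 to 105). The Ucn stretch lies at chr5:31138921-31138950 (minus, 44 to 37). All these distances are from RefSeq starts, which differ from the GENCODE M21 gene spans given elsewhere. The stretches of Sst, Scg2, Chgb and Cartpt lie inside those spans, and that of Ucn lies outside. The 5 genes ran from the highest level of all precursors, Sst at 559 ± 37.0 TPM, through Scg2, Chgb and Cartpt to Ucn, which had 0 counts in pup 1 and 1 in pup 3. A match of these letters is a description of the window and not a measured site.

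Levels are given in TPM, the deposited unit of transcript abundance, which is scaled to length and can be compared between genes. Of the 46 genes, 35 (76.1%) reached 1 TPM in each pup, against 62.1% of 21474 protein-coding genes. On average over the pups, 10 genes stood at 100 TPM or more, 11 between 10 and 100, 16 between 1 and 10, and 9 below 1. Of all protein-coding genes, 8.13% reached 100 TPM. The median of the 46 genes was 6.26 TPM in pup 1 and 7.25 in pup 3, beside 4.52 and 4.70 for all protein-coding genes. The 46 genes summed to 2835 TPM in pup 1 and 3029 in pup 3, which was 0.293% ± 0.0137 (SD, n = 2) of all TPM. The 10 highest, Sst, Pcsk1n, Scg5, Scg2, Chga, Avp, Tac1, Chgb, Npy and Scg3, held 86.8% ± 0.786 of that sum.

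In the order of mean TPM, neighbouring genes were called apart where the values of the 2 pups did not overlap and the deposited credibility intervals of the 2 genes did not overlap in either library. By this rule 7 of 45 neighbouring pairs were apart. At the top of the order, Sst stood above Pcsk1n, Pcsk1n above Scg5, Scg5 above Scg2 and Scg2 above Chga. The place of Sst rests on its length of 599 bases in the deposited values, against 721 in GENCODE M21. Pcsk1n has 2193 bases in both. A longer Sst transcript would lower its TPM, and the order at that length was not tested. Avp could not be separated from Chga above it or Tac1 below it, because its values in the pups lay far apart. Tac1 stood above Chgb, Scg3 above Cck and Nucb2 above Gal, and no other neighbours were apart.

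**Figure D1:**
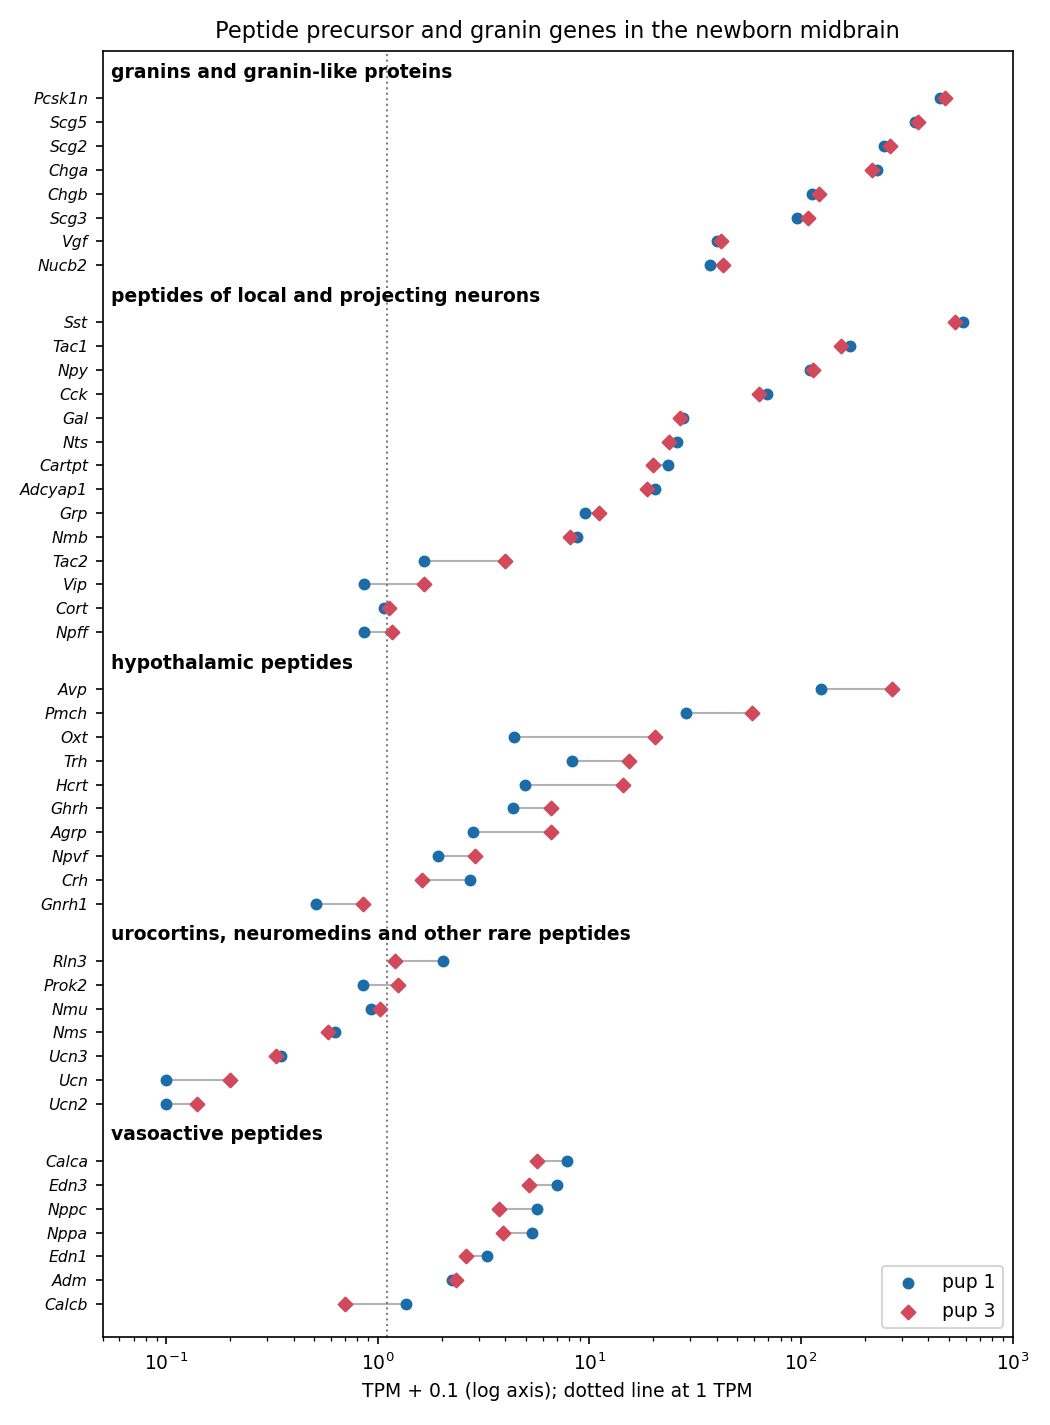
TPM plus 0.1 on a log axis for the 46 precursor genes in pup 1 (circles) and pup 3 (diamonds), grouped by role, with a grey line joining the values of a gene. Granins sit between 37.1 and 478 TPM with the pups close together, while most hypothalamic peptides lie further right in pup 3.

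The granins formed the most abundant group, with a median of 169.9 TPM and 54.4% ± 1.01 (SD, n = 2) of the TPM of all 46 genes. Each of the 8 was above 37 TPM in both pups. Pcsk1n encodes proSAAS, a granin-like protein that inhibits the convertase PC1/3 (ENSMUSG00000039278.10, mm10 chromosome X, 7919822 to 7924410). It had 455 TPM in pup 1 and 478 in pup 3, second among all 46 genes by TPM and first by counts. Scg5, which encodes 7B2, the chaperone of the convertase PC2 (chromosome 2, 113776362 to 113829121), was at 346 and 356 TPM. The pups lay close together for both genes.

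Scg2, the precursor of secretoneurin (ENSMUSG00000050711.7, chromosome 1, 79434669 to 79440120), had 247 TPM in pup 1 and 263 in pup 3. Chga, chromogranin A, a protein that helps to form dense-core vesicles (chromosome 12, 102554969 to 102565028), was at 229 and 216. Chgb, chromogranin B (chromosome 2, 132781278 to 132795079), stood lower at 113 and 121. Scg3, which binds chromogranin A to the vesicle membrane, was at 95.7 and 107. The last members of the group were Vgf, a precursor induced by neurotrophins, at 39.8 and 41.8, and Nucb2, the precursor of nesfatin-1, at 37.1 and 42.9.

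Of the 8 granins, 7 (all but Chga) were slightly higher in pup 3, by 0.04 to 0.21 on the log2 scale of TPM plus 0.1, and Chga was lower by 0.09. Across the 13318 genes with a mean count of at least 100, 54.8% were higher in pup 3 by any amount and the median absolute difference was 0.11. None of the 8 differed by more than 1 on this scale, and 0.315% of the 13318 genes did. The exact 95% interval of the count ratio spanned 0 for Scg5 (−0.02 to 0.07) and Vgf (−0.02 to 0.14).

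Among peptides of local and projecting neurons, Sst stood far above the rest. Sst encodes somatostatin, an inhibitory peptide of local interneurons and of some projecting cells (ENSMUSG00000004366.3, chromosome 16, 23889573 to 23890958), and its level was 585 TPM in pup 1 and 533 in pup 3. Its relative Cort, the cortistatin gene, was at 0.97 and 1.03. The log2 ratio of Sst over Cort was thus 8.99 ± 0.15 (SD, n = 2). Sst was the highest precursor by TPM and the sixth by counts, since its transcript of 599 bases collects fewer reads per molecule than the 2193 bases of Pcsk1n.

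Tac1, the precursor of substance P and neurokinin A (ENSMUSG00000061762.8, chromosome 6, 7554879 to 7565834), was next at 170 TPM in pup 1 and 154 in pup 3. Npy, neuropeptide Y (chromosome 6, 49822710 to 49829507), was at 111 and 113. Cck, cholecystokinin, known in dopaminergic neurons of the ventral midbrain (chromosome 9, 121489824 to 121495694), was at 69.2 and 63.0. These 3 genes differed little between the pups. Gal, the galanin gene, was at 27.4 and 26.6 TPM. Nts, neurotensin, was at 25.7 and 23.8. Cartpt, the CART precursor, known from the Edinger-Westphal nucleus, was at 23.3 and 19.8. Adcyap1, which encodes the peptide PACAP, was at 20.3 and 18.6, and Grp, the gastrin-releasing peptide gene, at 9.46 and 10.95.

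The 5 remaining genes of this group were Nmb (8.30 ± 0.424 TPM, SD, n = 2), Tac2, Vip, Cort and Npff, the last of which was lowest on the mean of the pups, at 0.76 and 1.06 TPM. Tac2, the neurokinin B precursor, had 1.56 TPM in pup 1 and 3.88 in pup 3 (21 and 57 counts), a log2 difference of 1.26. Vip, vasoactive intestinal peptide, had 0.76 and 1.55 (25 and 56 counts), a difference of 0.94. Both genes were below the mean count of 100 used for differences between pups, and their exact count intervals of 0.55 to 2.09 and 0.32 to 1.76 on the log2 scale did not span 0. Of the 10 genes of the group above that mean count, 8 were lower in pup 3, by 0.04 to 0.24, and 2 (Npy and Grp) were higher. Of all 13318 genes at that mean count, 5986 were lower and 7293 higher, with a median absolute difference of 0.11. No gene of the 10 passed 1, and 0.315% of the 13318 genes did in either direction.

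The hypothalamic peptide genes differed most between the pups. Their summed level was 181 TPM in pup 1 and 396 in pup 3, a 2.18-fold difference, and their share of the TPM of all 46 genes was 6.40% and 13.1%. In this group 4 genes, Avp, Oxt, Hcrt and Pmch, were higher in pup 3 by more than 1 on the log2 scale at a mean count of 100 or more. Over all 13318 genes above that mean count, 29 (0.218%) were higher by more than 1 and 13 (0.0976%) were lower. At that mean count, no precursor outside this group passed 1 in either direction. With 1 library per animal, no replicate checks these differences.

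Avp encodes arginine vasopressin (ENSMUSG00000037727.6, chromosome 2, 130580620 to 130582554, minus strand), made by magnocellular and parvocellular neurons of the hypothalamus. Its level was 124 TPM in pup 1 and 269.7 in pup 3, which placed it among the 10 highest precursors. The log2 difference was 1.12, with an exact 95% interval of the count ratio of 1.01 to 1.20. Oxt, the oxytocin gene (ENSMUSG00000027301.7, chromosome 2, 130576173 to 130577054, plus strand), lies 3565 bases from Avp. Its level was 4.28 and 20.4 TPM, from estimated counts of 43.4 and 226, and its log2 difference of 2.23 (interval 1.78 to 2.76) was the largest among the 46 genes.

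Hcrt, the orexin precursor of the lateral hypothalamus (ENSMUSG00000045471.4, chromosome 11, 100761069 to 100762931), had 4.88 TPM in pup 1 and 14.3 in pup 3, from 55 and 176 counts. Its log2 difference was 1.53 (count interval 1.09 to 2.00). Pmch, the precursor of melanin-concentrating hormone, made in the same region (ENSMUSG00000035383.7, chromosome 10, 88091072 to 88092375), was at 28.4 and 58.7 TPM. Its difference of 1.05 was just past 1, and the count interval of 0.87 to 1.20 spanned that value. For each of these 4 genes pup 3 was the higher animal.

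Trh, thyrotropin-releasing hormone, was just short of 1, with 8.21 TPM in pup 1, 15.2 in pup 3 and a log2 difference of 0.88 (count interval 0.65 to 1.10). All 5 genes of the group at a mean count of 100 or more were therefore higher in pup 3, against 54.8% of all genes at that count. Of the 5 genes below that mean count, 4 were also higher. Agrp, the agouti-related peptide of arcuate neurons, was at 2.70 and 6.49 TPM, a log2 difference of 1.23. Ghrh, growth hormone-releasing hormone, was at 4.24 and 6.47, and Npvf, the precursor of RFamide peptides, at 1.82 and 2.78. Gnrh1, gonadotropin-releasing hormone, was lowest at 0.41 and 0.75 (4 and 8 counts). The count intervals of Ghrh (−0.01 to 1.18), Npvf (−0.09 to 1.30) and Gnrh1 (−1.04 to 3.04) spanned 0, and that of Agrp (0.66 to 1.82) did not. Crh, corticotropin-releasing hormone, went the other way at 2.62 and 1.52 TPM, with an interval of −1.36 to −0.25 on the log2 count ratio, and was the sole gene of the group that was lower in pup 3.

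Marker genes of the hypothalamus were also higher in pup 3. Of 10 transcription factor genes on that list, 10 were higher in pup 3, by 0.47 to 1.59 on the log2 scale, with a median of 0.70. The list was chosen with earlier results of these data known, so these counts are a description and not a separate check. The exact count intervals of Rax (−0.49 to 1.98), Hmx2 (−0.20 to 1.55) and Hmx3 (−0.29 to 1.33) spanned 0. At a mean count of 100 or more, 5 of 5 on the list were higher, against 54.8% of all genes. They summed to 17.4 TPM in pup 1 and 31.1 in pup 3. Six6 was at 1.02 and 3.27 TPM, Fezf1 at 5.15 and 9.55, Otp at 2.05 and 3.83 and Nkx2-1 at 4.36 and 6.47, and no marker on the list was at 0. Of 10 forebrain markers, 9 were higher in pup 3, and the list summed to 53.2 and 78.6 TPM. The 13 midbrain markers split into 5 higher and 8 lower, between −0.22 and 0.17, and summed to 904 and 979 TPM. Tcf7l2 held most of that sum, at 645 TPM in pup 1 and 726 in pup 3. The part of these markers in the peptide differences was not tested. In bulk tissue, more cells of a type and more RNA per cell cannot be told apart.

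**Figure D2:**
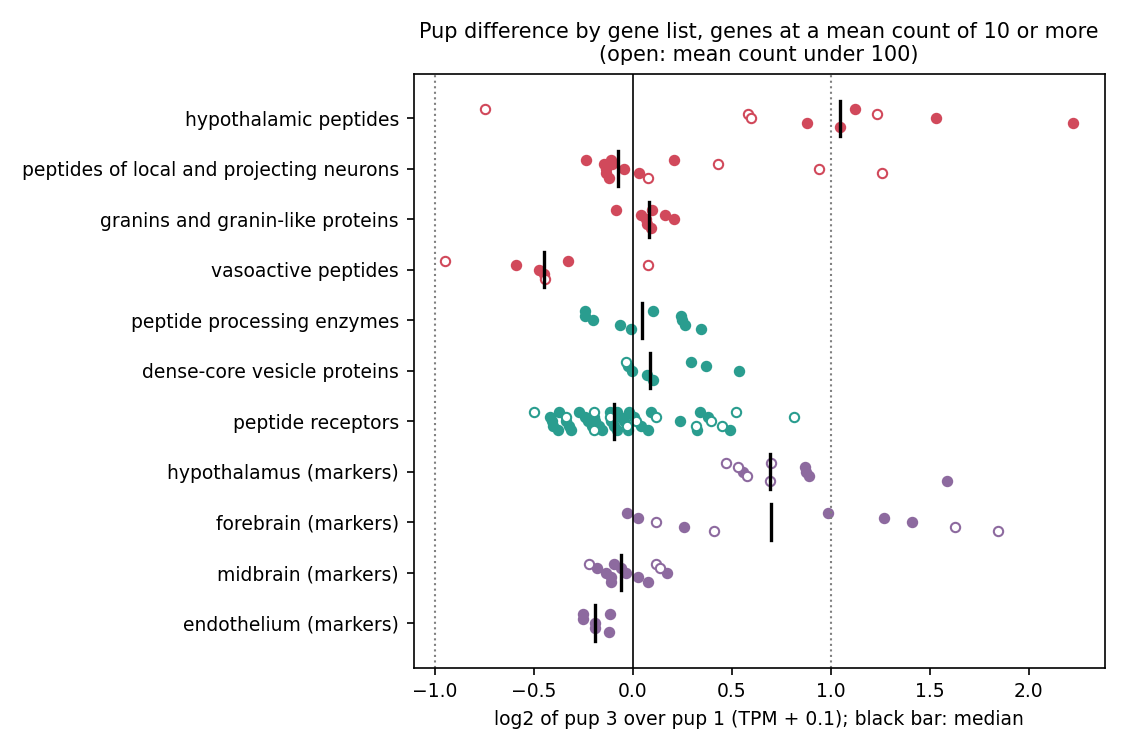
Log2 of pup 3 over pup 1 (TPM plus 0.1) for genes with a mean count of at least 10, by gene list, with filled points at a mean count of 100 or more, open points below it, and a black bar at the median of the points drawn. Hypothalamic peptides and hypothalamus markers lie to the right of 0, apart from Crh at −0.75, while midbrain markers lie between −0.22 and 0.17.

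The separate values of Avp and Oxt depend on how shared reads were divided. Their transcripts share a run of 127 identical coding bases, most of it in exon 2, which encodes the bulk of neurophysin, the carrier protein cut from both precursors. The run is shown because a read that falls inside it cannot be assigned to either gene by its sequence.
Avp and Oxt, shared run: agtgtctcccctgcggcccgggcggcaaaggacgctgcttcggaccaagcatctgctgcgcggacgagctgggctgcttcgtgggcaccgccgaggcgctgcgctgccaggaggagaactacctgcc
In Avp, 125 of these bases lie at chr2:130581133-130581257 on the minus strand, and in Oxt at chr2:130576591-130576715 on the plus strand (mm10, GENCODE M21). The first 2 bases end exon 1 of each gene. Of all 50-base stretches in the transcript, 14.8% in Avp also occur in Oxt, and 16.0% in Oxt also occur in Avp. The deposited counts of both genes were fractional, but they summed to whole numbers, 1413 in pup 1 and 3482 in pup 3. The summed counts, which do not depend on the division between these 2 genes, were higher in pup 3 by 1.16 on the log2 scale at equal total count (exact 95% interval 1.07 to 1.25), and the summed TPM by 1.18. The ratio of Avp to Oxt TPM, 28.9 in pup 1 and 13.2 in pup 3, does depend on it.

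Pmch was a similar case on opposite strands. Of its 50-base stretches, 48.4% also occur, as the reverse complement, in transcripts of Parpbp, a DNA repair gene that overlaps it. Counts of the pair were fractional one by one and summed to 480 in pup 1 and 1026 in pup 3. Parpbp itself was given 53.7 and 62.0 counts. Nppa and its antisense gene Gm13054 (53.4% of stretches, 101 and 92 counts in sum) and Nmb with Sec11a (17.7%, 2513 and 2782) also summed to whole numbers. Agrp shared 9.49% of its stretches with Ctcf and Gm5914. The other 40 genes had whole counts in both pups, within 0.005.

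**Figure D3:**
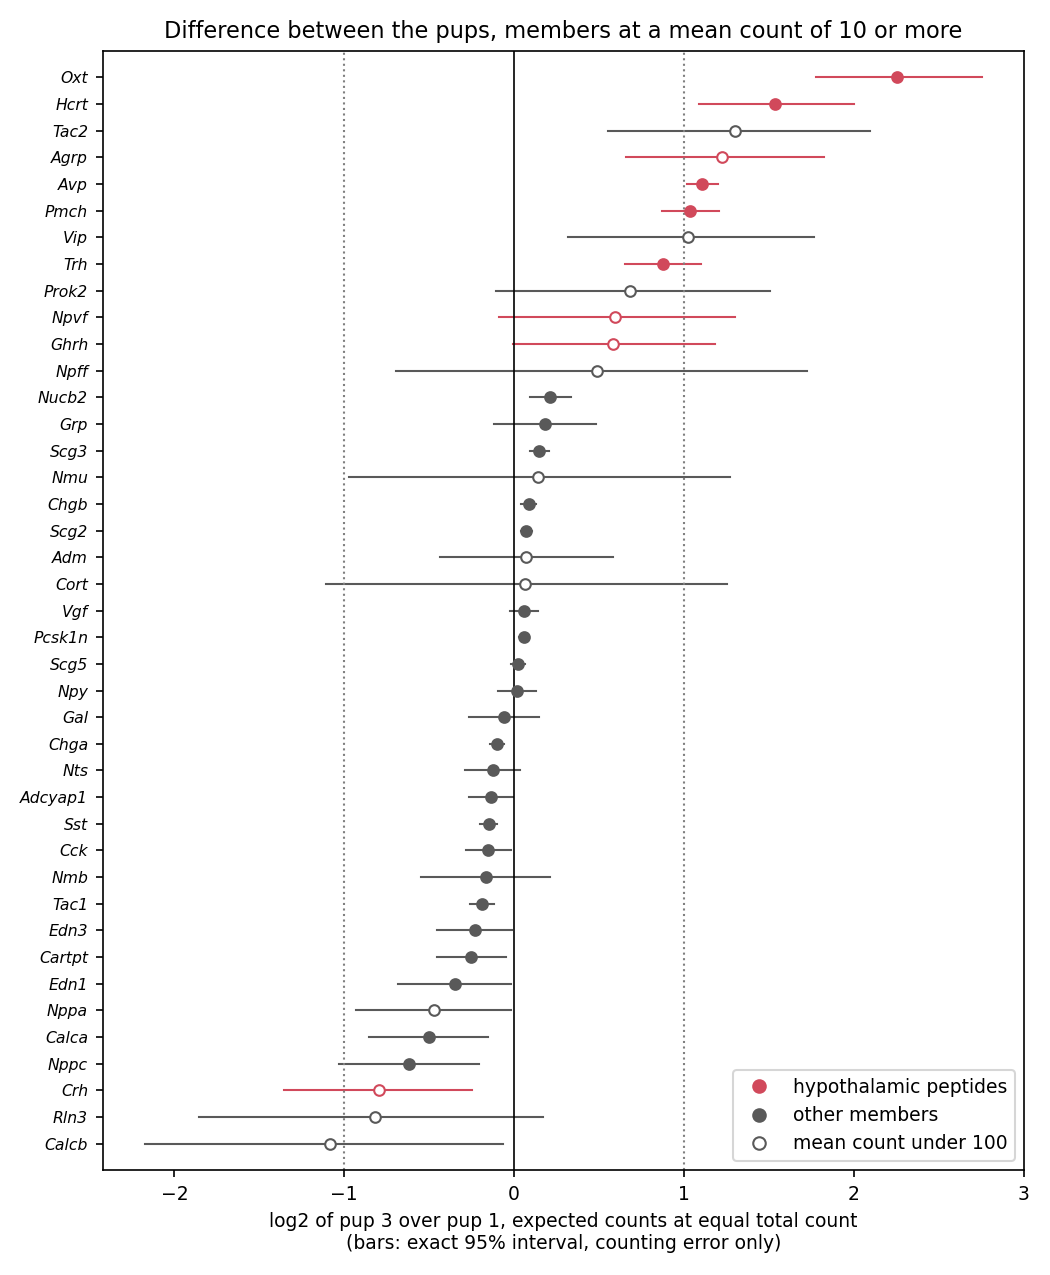
Log2 of pup 3 over pup 1 from expected counts at equal total count, with exact 95% binomial intervals that cover counting error only, for precursor genes with a mean count of at least 10 (open points: mean count under 100). Oxt, Hcrt, Avp and Pmch are the filled points to the right of the dotted line at 1, and no filled point lies left of −1.

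The 7 urocortins, neuromedins and other rare peptides were near the limit of what these libraries could count. Rln3, relaxin-3, a peptide of the nucleus incertus in the hindbrain, was the highest on the mean of the pups, at 1.94 TPM in pup 1 and 1.11 in pup 3 (24 and 15 counts), and it was the sole gene of the group to reach 1 TPM in each pup. Prok2, prokineticin 2, was at 0.75 and 1.14, and Nmu, neuromedin U, at 0.83 and 0.92. Nms was at 0.53 and 0.48 and Ucn3 at 0.25 and 0.23. Ucn, urocortin, known from the Edinger-Westphal nucleus, and Ucn2 each had 0 counts in pup 1 and 1 in pup 3. A count of 0 allows up to 3 counts at this depth, so no fold is given for either, and their expression was not detectable beyond that. None of the 7 reached the mean count of 100.

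The vasoactive peptides act on vessels as well as on neurons and neural crest cells, and their 7 genes were low, from 0.93 to 6.64 TPM on average. Calca, the precursor of CGRP, was the highest at 7.73 TPM in pup 1 and 5.54 in pup 3, and its neighbour Calcb, which encodes a second CGRP, the lowest at 1.25 and 0.60. The endothelin genes Edn3 (6.96 and 5.08 TPM) and Edn1 (3.16 and 2.50), and the natriuretic peptide genes Nppc (5.55 and 3.65) and Nppa (5.23 and 3.82), lay between them. All but Adm, the adrenomedullin gene at 2.13 and 2.25, were lower in pup 3. The group summed to 32.0 and 23.4 TPM. The 4 genes with a mean count of at least 100, Calca, Nppc, Edn1 and Edn3, were lower by 0.33 to 0.59 in TPM, and none passed 1. For Edn3 the TPM difference was −0.45, while its count ratio was −0.23 (interval −0.45 to −0.01). The deposited length of Edn3 was 2285 bases in pup 1 and 2681 in pup 3. Of all 13318 genes at that mean count, 5986 were lower, 0.315% passed 1 in either direction, and the median absolute difference was 0.11. At 1.5-fold, Nppc was lower, which held for 0.353% of all genes tested, while 1.58% were higher by that much. Endothelium markers were lower in pup 3 for 6 of 6 genes, by 0.11 to 0.25, and summed to 160.5 and 136.9 TPM. Their part in the difference was not tested.

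Genes of the machinery that makes peptides from these precursors were present throughout. All 10 processing enzymes reached 1 TPM in each pup, against 62.1% of all protein-coding genes. Cpe, the carboxypeptidase that trims cut peptides, was by far the highest at 1245 ± 38.5 TPM (SD, n = 2), above every precursor gene. Pam, the amidating enzyme, was at 36.4 ± 4.67. Pcsk2, the convertase PC2, was at 31.4 ± 1.61, and Qpct, which forms N-terminal pyroglutamate, at 25.7 ± 3.06. Pcsk1, the other main neuroendocrine convertase, was lower at 4.11 ± 0.495. The log2 ratio of Pcsk2 over Pcsk1 was 2.74 in pup 1 and 3.08 in pup 3. By TPM, both convertase genes were well below the genes of the proteins that act on them. Pcsk2 stood under Scg5 by a log2 ratio of −3.48 ± 0.04, and Pcsk1n stood over Pcsk1 by 6.80 ± 0.22. These are RNA levels in bulk tissue, and protein amounts were not measured.

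Of 8 genes for dense-core vesicle proteins, 7 reached 1 TPM in each pup, against 62.1% of protein-coding genes. Sytl4 did not, at 0.73 and 0.71. Rab2a, a small GTPase of vesicle maturation, led at 362 ± 12.5 TPM (SD, n = 2). Hid1, a trans-Golgi factor for dense-core vesicles, was at 55.8 ± 0.0919, Ptprn, a vesicle membrane protein, at 44.1 ± 0.502, and Cadps, a priming factor for vesicle release, at 23.5 ± 1.21. At a mean count of 100 or more, none of the 10 enzyme and 7 vesicle genes differed between the pups by more than 1. Of all 13318 genes at that mean count, 0.315% did.

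Receptor genes were lower than precursors as a list, with a median of 2.38 TPM in pup 1 and 2.27 in pup 3. Of 56 listed, 55 were read, without Galr3. Of these, 38 (69.1%) reached 1 TPM in each pup, near the 62.1% of all protein-coding genes, and Avpr1b and Ghrhr were at 0 in both. The highest was Ednrb, the endothelin receptor B, at 95.5 ± 5.35 TPM (SD, n = 2). Ramp2 and Ramp1, partner proteins of the CGRP and adrenomedullin receptors, were at 85.2 ± 4.65 and 25.1 ± 0.269, and Adcyap1r1, the PACAP receptor, at 59.9 ± 2.29. Among receptors at a mean count of 100 or more, 25 of 34 were lower in pup 3 and none passed 1. Of all genes at that mean count, 5986 of 13318 were lower, and 0.315% passed 1 in either direction.

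At a mean count of 100 or more, no receptor of the 4 peptides past 1 differed between the pups by more than 1. Of all 13318 genes at that mean count, 0.315% did. Avpr1b (0 counts in both pups) and Avpr2 (3.2 and 2.67 counts) were too low to compare. Avpr1a had 2.40 TPM in pup 1 and 2.85 in pup 3, and Oxtr had 2.46 and 2.30. The orexin receptors Hcrtr1 (14.3 and 11.8) and Hcrtr2 (6.51 and 5.56) and the receptor of melanin-concentrating hormone, Mchr1 (10.6 and 7.92), were lower in pup 3, where their ligands were higher. Avpr1a, Oxtr, Hcrtr1, Hcrtr2 and Mchr1 were named for their ligands after the values of the ligands were seen.

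The transcript tables divide each gene's level among its annotated forms. Of the 46 genes, 28 had 1 transcript in the tables and 18 had more. Tac1, Scg2, Vgf, Nucb2 and Grp were at 10 TPM or more with at least 2 transcripts above 10% in both pups. The share of a transcript is the percent of the gene's TPM that the deposited tables assign to it.

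Tac1 is known for precursor forms that include or skip 2 short exons, and 3 of these forms are described here. All 3 contain substance P, while exon 6 encodes neurokinin A. The exons are shown because the forms differ by them alone within the coding sequence.
Tac1 exon 4: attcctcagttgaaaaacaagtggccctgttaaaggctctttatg
Tac1 exon 6: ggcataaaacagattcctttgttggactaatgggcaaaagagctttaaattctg
Exon 4 has 45 bases at chr6:7557216-7557260 and exon 6 has 54 bases at chr6:7559099-7559152, both on the plus strand (mm10, GENCODE M21). The transcript without exon 4, the gamma form, held 39.1% of Tac1 TPM in pup 1 and 42.9% in pup 3. The beta form, with all 7 exons, held 36.0% and 33.7%. The alpha form, which skips exon 6 and lacks neurokinin A, held 24.8% and 23.1%. The order of the 3 forms by TPM was the same in both pups. It rests on the annotated lengths, 691 bases for the gamma and 1230 for the beta transcript: in expected counts the beta form led with 47.4% and 45.4%, before the gamma form with 27.0% and 30.2% and the alpha form with 25.5% and 24.3%. On both scales the alpha form, without exon 6, held the smallest share of the 3.

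Scg2 had 2 coding transcripts of nearly equal share. The longer one, with a coding sequence of 1851 bases, held 56.5% of Scg2 TPM in pup 1 and 53.5% in pup 3. The shorter one held 43.5% and 46.5%, and its coding sequence of 1731 bases lacks a stretch of 120 bases in exon 2, shown here because it is the whole coding difference between the transcripts.
Scg2, stretch absent from the shorter transcript: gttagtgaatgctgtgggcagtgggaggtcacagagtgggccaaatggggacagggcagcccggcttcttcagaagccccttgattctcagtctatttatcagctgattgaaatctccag
The stretch lies at chr1:79435932-79436051 on the minus strand, and it begins with gt and ends with ag, the letters found at the ends of most introns. The reads that cross its ends were not examined here.

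**Figure D4:**
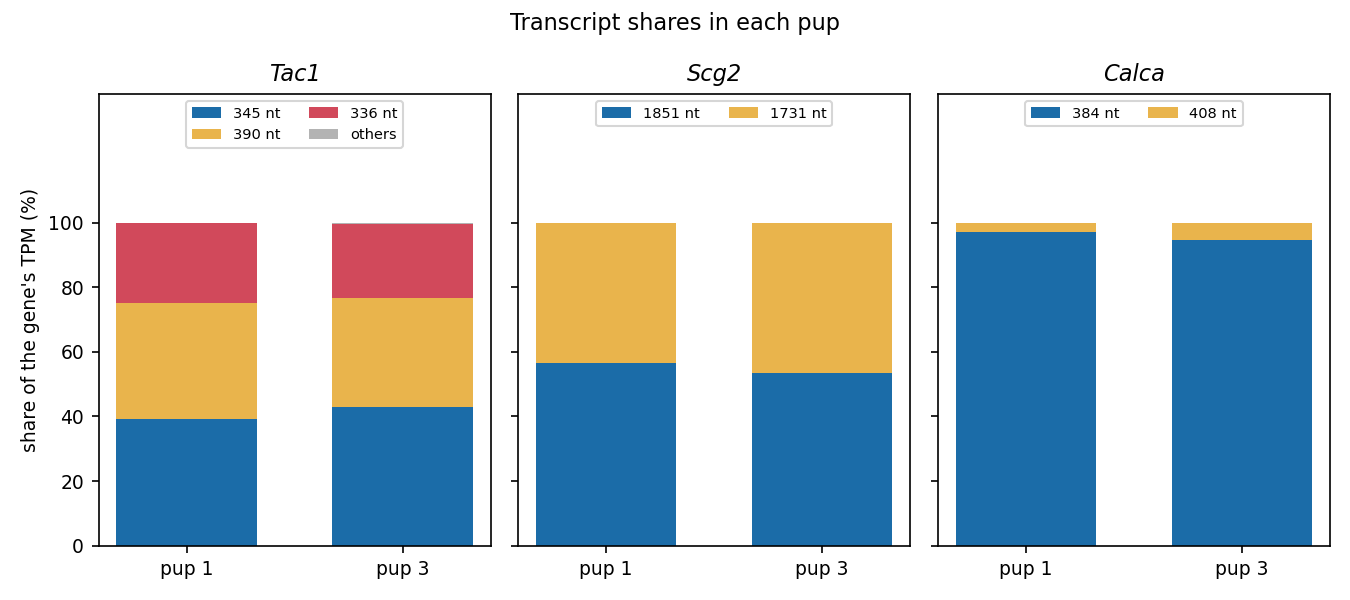
Share of each gene's TPM (%) held by its annotated transcripts in pup 1 and pup 3 for Tac1, Scg2 and Calca, as stacked bars named by the length of the coding sequence in bases (nt). By TPM, the gamma form of Tac1 (345 coding bases) leads in both pups at 39.1% and 42.9%, and for Calca the CGRP form (384) holds 97.0% and 94.5%.

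For Vgf, the leading transcript held 87.1% in pup 1 and 85.2% in pup 3 and the next 10.8% and 12.8%, and both carry the same coding length of 1851 bases. For Nucb2, the leading coding transcript held 71.9% and 73.0%, and a noncoding transcript of 329 bases held 27.8% and 26.4%. In expected counts, which are not divided by length, the noncoding transcript held 5.39% and 5.04% of Nucb2. For Grp, the leading transcript held 79.7% and 88.4% and the other coding one 20.3% and 11.6%, with the same coding length of 438 bases. Calca was below 10 TPM and was chosen after its values were seen, since its 2 transcripts encode different hormones. The CGRP form held 97.0% and 94.5% of Calca TPM, and the calcitonin form held 3.00% and 5.51%.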

How the data were processed

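Both libraries were read from the tables deposited by the authors, which were quantified on transcriptome alignments (mm10, GENCODE M4), per the file headers and the text record beside them. Neither the program nor its use of strand was given in the sources used here. Expected counts deposited by the authors are estimated reads per gene. TPM values deposited by the authors are per length and sum over every feature of the file. The authors' tables also hold the percent of a gene's TPM per transcript and credibility bounds of unstated level.

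Symbols and coordinates came from GENCODE M21 by Ensembl identifier. Kiss1 and Galr3 were not matched. Differences between pups are log2 of TPM plus 0.1, called past 1 at a mean count of 100 or more. Count ratios were set at equal total count, with exact 95% binomial intervals. A count of 0 was taken to allow 3 counts, and such intervals and limits cover only counting error, because reads are not independent molecules. The computation was tested on simulated data. Full values are given for genes with a mean level of at least 10 TPM or past the difference threshold, for the highest and lowest of each role group, and for the 4 highest of each pathway list. The genes and lists were chosen with earlier results of these data known. Alternatives used edgeR 4.0.16 (TMM factors) and DESeq2 1.42.0 (size factors) on R 4.3.3. Scripts ran on Python 3.11.15 with pandas 2.3.3 and SciPy 1.17.1.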

Additional observations from a re-analysis of the deposited data

How the results depend on the processing

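The count of precursor genes higher in pup 3 by more than 1 stayed at 4 with pseudocounts of 1 and 0.01, with TMM factors, with DESeq2 size factors and with the posterior mean TPM. It was 6 with a mean count of 10 or more or no filter, which added Tac2 and Agrp, where 1.53% of all genes with a mean count of at least 10 were higher by that much, and 5 at 1.5-fold, which added Trh. The count lower in pup 3 was 0 at the threshold of 1 and was 1 (Nppc) at 1.5-fold. Of 135 alternative values of the differences of 22 genes, 134 stayed within the counting interval and none reversed, and the other, Oxt summed with Avp, was 1.18. That sum and the counts at equal total were chosen after seeing the data. Each scaling moved the median of all genes by less than 0.1. The median level was 14.0 TPM over genes at 1 TPM or more, by construction over fewer genes. The granins' share was 78.7% of expected counts, which are not divided by length. Without either pup, detected genes numbered 36 to 39, the median 6.26 to 7.25 TPM and the granins' share 53.7% to 55.1%. The posterior mean share of the leading transcript moved by under 1 SD for 3 of 5 genes, and was 71.5% for Nucb2 and 75.5% for Grp. No paired analysis was possible because the labels give 1 group. Depth limits the genes below 1 TPM most, where a gene had between 0 and 39 counts in a pup.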

Other observations

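Some relatives within a peptide family stood at different levels in both pups, with values and credibility intervals that did not overlap. The pairs were picked, and other relatives did overlap, such as Nppa (5.23 TPM in pup 1 and 3.82 in pup 3) and Nppc (5.55 and 3.65). Adcyap1 stood over Vip by a log2 ratio of 4.04 ± 0.75 (SD, n = 2), Tac1 over Tac2 by 5.98 ± 0.99, Calca over Calcb by 2.77 ± 0.34 and Edn3 over Edn1 by 1.05 ± 0.09. Some receptors of a family, also picked, stood apart too. Ednrb stood over Ednra by 4.46 ± 0.05, Hcrtr1 over Hcrtr2 by 1.10 ± 0.03 and Sstr1 over Sstr2 by 0.68 ± 0.12. These ratios use TPM plus 0.1, which understates those of low genes.

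Of the 29 genes higher in pup 3 by more than 1 at a mean count of 100 or more, 17 were protein-coding. These included the 4 peptide precursors Avp, Oxt, Hcrt and Pmch and 3 hypothalamus or forebrain markers, Six6, Dlx1 and Dlx2. Of the 13 lower genes, 0 were precursors of the list.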
